A study of Mus musculus with 4 samples.

Results

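The miR-26 family (mmu-miR-26a-5p and mmu-miR-26b-5p) and the family of miR-148 and miR-152 (mmu-miR-148a-3p, mmu-miR-148b-3p and mmu-miR-152-3p) were described across 4 miRNA arrays of mouse small intestine. The 5 members are the probes that carry these names, of 1897 miRNA probes used. They were chosen because several of them were among the bright miRNAs that lay furthest below crypt in organoids, so their organoid against crypt differences are a description and support nothing. The 4 samples were villus epithelial cells, crypt epithelial cells, and crypt-derived organoids after 1 and 5 days of culture. An organoid is a closed epithelial structure that grows from crypt cells in culture. The labels give no strain, age, genotype or culture medium. Each group had 1 array, so no p-value was computed and every difference describes these 4 arrays.

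MicroRNAs are short RNAs that guide the Argonaute complex to messenger RNAs and lower their translation and stability. Pairing runs mainly through the seed, bases 2 to 8 from the 5′ end, so paralogs with the same seed share most of their predicted targets. miR-26 members are widely expressed, tend to increase as cells differentiate and have been reported to repress Ezh2, the enzyme that places the repressive H3K27 methyl mark. miR-148a and miR-152 have been reported to repress Dnmt1, the maintenance DNA methyltransferase.

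The mature sequences are shown because the paralogs differ by a few bases outside the seed and are read by separate probes (RefSeq, GRCm38.p6; all 5 names matched; capitals mark the seed).
miR-26a-5p: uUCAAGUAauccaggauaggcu
miR-26b-5p: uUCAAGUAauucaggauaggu
miR-148a-3p: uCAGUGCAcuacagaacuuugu
miR-148b-3p: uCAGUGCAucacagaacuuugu
miR-152-3p: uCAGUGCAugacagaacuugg
With positions counted from 1 at the 5′ end, miR-26a-5p differs from miR-26b-5p by C11U and C21U. miR-148a-3p differs from miR-148b-3p by C9U and U10C. miR-148a-3p differs from miR-152-3p by C9U, U10G and U20G, and miR-148b-3p from miR-152-3p by C10G and U20G. Of 1679 mature mouse miRNA names in the RefSeq table, only these 2 carry the miR-26 seed UCAAGUA and only these 3 the miR-148 seed CAGUGCA. The array's probe sequences were not used here, and how far one paralog binds the other's probe was not tested.

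The miR-26 genes lie inside the genes of the Ctdsp family, small phosphatases of the RNA polymerase II tail, on the same strand. Mature miR-26a-5p is made from 2 loci, chr9:119031811-119031832 (plus strand, Mir26a-1) within Ctdspl and chr10:126995543-126995564 (plus strand, Mir26a-2) within Ctdsp2. Its probe cannot tell them apart. miR-26b-5p lies at chr1:74394324-74394344 (plus strand) within Ctdsp1. miR-148b-3p lies at chr15:103285185-103285206 (plus strand) within Copz1, and miR-152-3p at chr11:96850439-96850459 (plus strand) within Copz2, genes of the zeta subunits of the COPI vesicle coat. miR-148a-3p lies at chr6:51269829-51269850 (minus strand), inside the span of the predicted gene Gm38821, whose strand is not given in the table used. The annotation used has gene spans only and does not separate exons from introns.

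Values below are spot intensities in scanner units, read against blank spots. A miRNA was detected where its spot lay over 2 SD above the blank mean, a limit of 107.8 for villus, 69.4 for crypt, 82.2 for day 1 and 70.5 for day 5. Between 1269 and 1556 miRNA probes per array were detected, and 1149 on all 4. The arrays differed in brightness: the Spike Control spots were 28361 above blank for villus, 8540 for crypt, 16422 for day 1 and 8578 for day 5. Raw intensities therefore do not compare between arrays. Log2 levels were obtained with normexp background correction at an offset of 50 and quantile normalization, which sets the 4 distributions equal.

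mmu-miR-26a-5p had intensities of 3412 for villus, 554 for crypt, 394 for day 1 organoids and 273 for day 5 organoids. Its log2 levels were 10.39, 10.78, 8.08 and 8.47 in that order, at ranks 40, 31, 163 and 126 of the 1897 probes. Both tissue arrays lay above both organoid arrays. mmu-miR-26b-5p had intensities of 1207, 266, 212 and 162, and log2 levels of 8.99, 9.33, 7.20 and 7.69. The tissue arrays again lay above the organoid arrays, and both miR-26 paralogs kept the order crypt, villus, day 5, day 1.

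mmu-miR-148a-3p had intensities of 820, 269, 216 and 143, and log2 levels of 8.45, 9.35, 7.22 and 7.48, in the same order of arrays as the miR-26 pair. mmu-miR-148b-3p was dim, with intensities of 163.0, 76.9, 91.9 and 74.9, which are 17.2, 9.32, 7.30 and 5.75 blank SDs above the blank mean. Its log2 levels, 6.39, 6.54, 6.04 and 6.15, were close together. mmu-miR-152-3p had intensities of 262.9, 86.8 and 90.6 on the villus, crypt and day 1 arrays, which are 44.6, 19.0 and 6.58 blank SDs above the blank mean. On the day 5 array it had 69.7, which is 1.36 blank SDs above the mean and below the limit, so it was not detected there. Its log2 levels were 6.98 for villus, 6.999 for crypt and 6.02 for day 1. In tissue samples, fewer cells that make a miRNA and less of it per cell cannot be told apart.

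**Figure D1:**
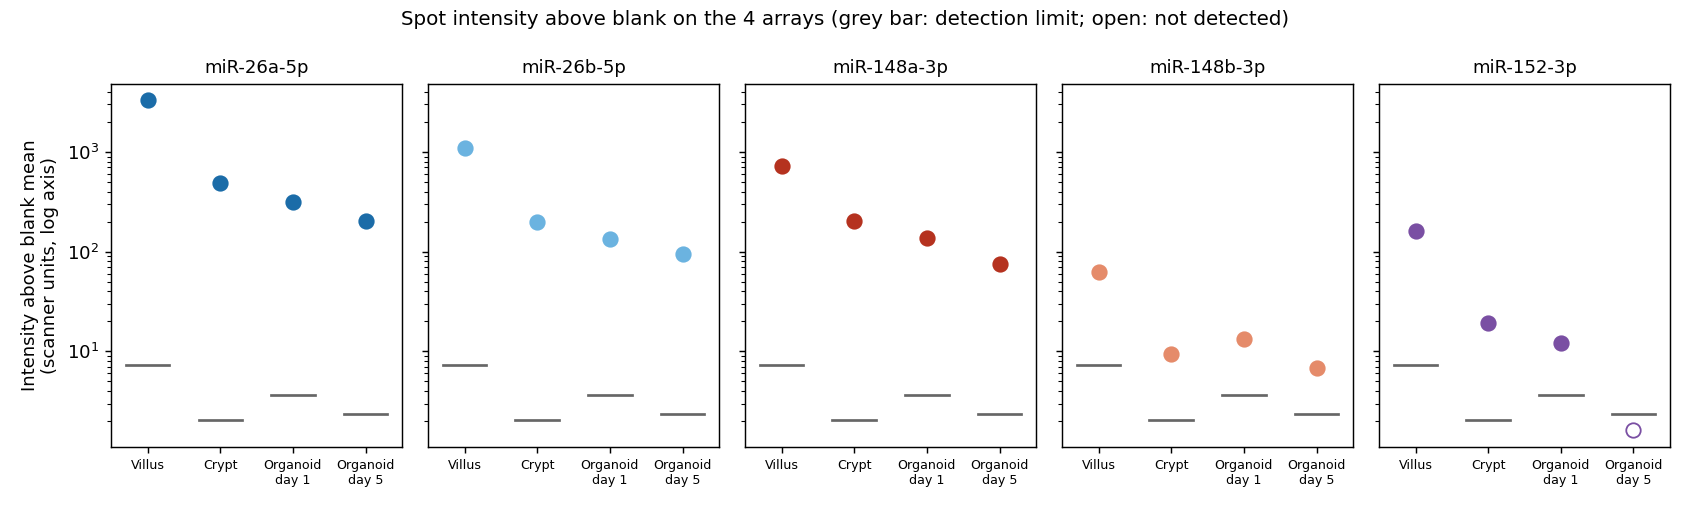
Intensity above the blank mean (scanner units, log axis) of the 5 members on the 4 arrays; points are single arrays, grey bars the detection limit and the open symbol a value below it. The arrays are not scaled to each other here, and the Spike Control spots ran from 8540 on the crypt to 28361 on the villus array; miR-152-3p is the one member that drops below the limit, on day 5.

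On the day 1 array, 3 of the 5 members were at least 2-fold lower than on the crypt array, beside 6.19% of the 1599 miRNAs detected on either array, and none was at least 2-fold higher, beside 5.19%. Since the members were picked on this contrast, nothing is read from the excess. miR-26a-5p was 6.54-fold lower (log2 difference -2.71), the largest difference down among the 1226 miRNAs detected on both arrays. miR-148a-3p was 4.40-fold lower (-2.14) and miR-26b-5p 4.39-fold lower (-2.14), at ranks 23 and 25. miR-152-3p was just short of the threshold at 1.97-fold lower (-0.98), and miR-148b-3p was 1.41-fold lower (-0.50), at rank 185. The median of the 5 members was -2.14, beside 0.03 for all miRNAs.

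On the day 5 array, 4 of the 5 members were at least 2-fold lower than on the crypt array, beside 5.12% of 1465 miRNAs, and none higher, beside 4.37%. miR-26a-5p was 4.98-fold lower (-2.32), miR-148a-3p 3.67-fold lower (-1.87) and miR-26b-5p 3.12-fold lower (-1.64). These stood at ranks 2, 5 and 16 among 1163 miRNAs detected on both arrays. miR-152-3p was at least 2.05-fold lower, a bound because it was not detected on day 5, and miR-148b-3p was 1.31-fold lower (-0.39). The 2 organoid comparisons share the crypt array. The day 5 array lay on another slide than the crypt array, so culture and slide cannot be told apart here.

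**Figure D2:**
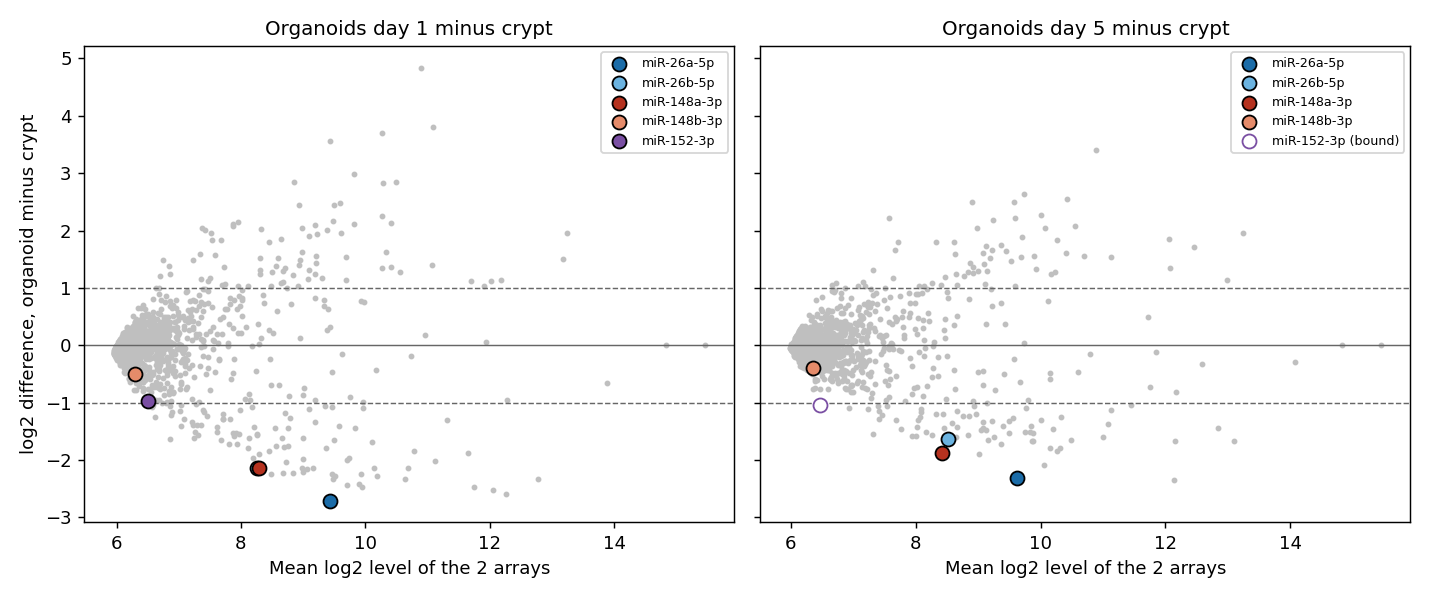
Log2 difference of each organoid array minus the crypt array against the mean log2 level, for miRNAs detected on both arrays (grey) and the 5 members (coloured; the open symbol is a bound); dashed lines mark 2-fold. miR-26a-5p is the lowest point on day 1 at -2.71, and miR-26b-5p lies under miR-148a-3p at -2.14. Of the 5 members, miR-148b-3p lies nearest the zero line on day 1 at -0.50, at rank 185 from the lowest of 1226.

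The sizes depended on the scaling, and the median difference of all miRNAs detected on both arrays moved with it. For day 1 minus crypt that median was 2.63 with scaling to 8 epithelial miRNAs, 1.46 with the Spike Controls, 0.44 in the deposited values, 0.20 under median scaling and -0.33 under 75th percentile scaling. For day 5 minus crypt it was 1.72, 0.94, 0.11, 0.08 and -0.14 in the same order, and for villus minus crypt 1.35, 1.23, 0.27, 0.33 and -0.29. Differences given as relative to all miRNAs have these medians taken off.

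For miR-26a-5p, the day 1 minus crypt difference stayed below 0 under all 10 alternatives and was at least 2-fold under 8 of them, between -3.08 and -0.40. Relative to all miRNAs it lay between -3.11 and -1.18. miR-26b-5p was also below 0 under all 10 (between -2.84 and -0.34), as was miR-148a-3p (between -2.83 and -0.32). In each case the smallest difference came from the epithelial scaling. Those 8, members of the miR-200 and miR-192 groups that mark epithelial cells, were detected on all 4 arrays, and 8 of 8 were themselves lower than crypt by 2-fold or more on day 1 (6.19% of all miRNAs were), with a median of -2.33. With that scaling the day 5 minus crypt differences were -0.48 for miR-26a-5p, -0.31 for miR-26b-5p and -0.66 for miR-148a-3p.

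miR-148b-3p did not hold a direction. Its day 1 minus crypt difference was above 0 under 2 of 10 alternatives, 0.71 with scaling to the epithelial miRNAs and 0.0059 with the background column subtracted. Its day 5 minus crypt difference ran from -1.40 to 0.29. On day 1 minus crypt, miR-152-3p stayed below 0 under all 10 alternatives, between -3.23 and -0.32, and passed 2-fold under 5 of them. On day 5 minus crypt it was a bound under all 10, and such a bound could only lie below 0. That bound passed 2-fold under 5 alternatives.

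The paralogs were then compared by how far each moved between the same arrays, since levels of different probes do not compare. Adding an offset of 50 makes the differences of dim probes smaller, which touches miR-148b-3p and miR-152-3p most. Ratios of intensity above blank, each divided by the Spike Control spots of its array, avoid that step. They are the Spike Control scaling setting without the log, and not a separate measurement. Their ranges were taken from 2 blank SDs on either array. They cover the scatter of blank spots only, not the spread between samples.

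On this scale the day 1 over crypt ratio was 0.337 (range 0.331 to 0.342) for miR-26a-5p and 0.351 (0.338 to 0.364) for miR-26b-5p. The ranges overlap. miR-26a-5p minus miR-26b-5p, the difference between the paralogs' log2 differences, was -0.57 on the quantile-normalized scale and -0.06 with Spike Control scaling. It stayed below 0 under all 10 alternatives, several of which repeat the same paralog difference. On day 5 over crypt the ratios were 0.419 (0.413 to 0.426) and 0.472 (0.455 to 0.489), and here the ranges do not overlap. The paralog difference was -0.68 on the quantile-normalized scale and -0.17 with Spike Control scaling.

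In the miR-148 and miR-152 family, the day 1 over crypt ratio was 0.356 (0.343 to 0.369) for miR-148a-3p, 0.322 (0.203 to 0.469) for miR-152-3p and 0.728 (0.435 to 1.18) for miR-148b-3p. miR-148a-3p and miR-152-3p thus had overlapping ranges, while the miR-148b-3p range lies above that of miR-148a-3p and takes in 1. miR-148a-3p minus miR-148b-3p was -1.64 on the quantile-normalized scale and -1.03 with Spike Control scaling, but -0.54 with scaling to the median. miR-148a-3p minus miR-152-3p was -1.16 on the quantile-normalized scale, -1.25 with the background column subtracted and 0.14 with Spike Control scaling, so the order of those 2 paralogs was not settled. On day 5 over crypt the ratios were 0.368 (0.353 to 0.384) for miR-148a-3p and 0.713 (0.383 to 1.22) for miR-148b-3p, whose ranges overlap slightly at their ends. For miR-152-3p, not detected on day 5, the upper end of the range was 0.229, below the whole range of both paralogs.

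**Figure D3:**
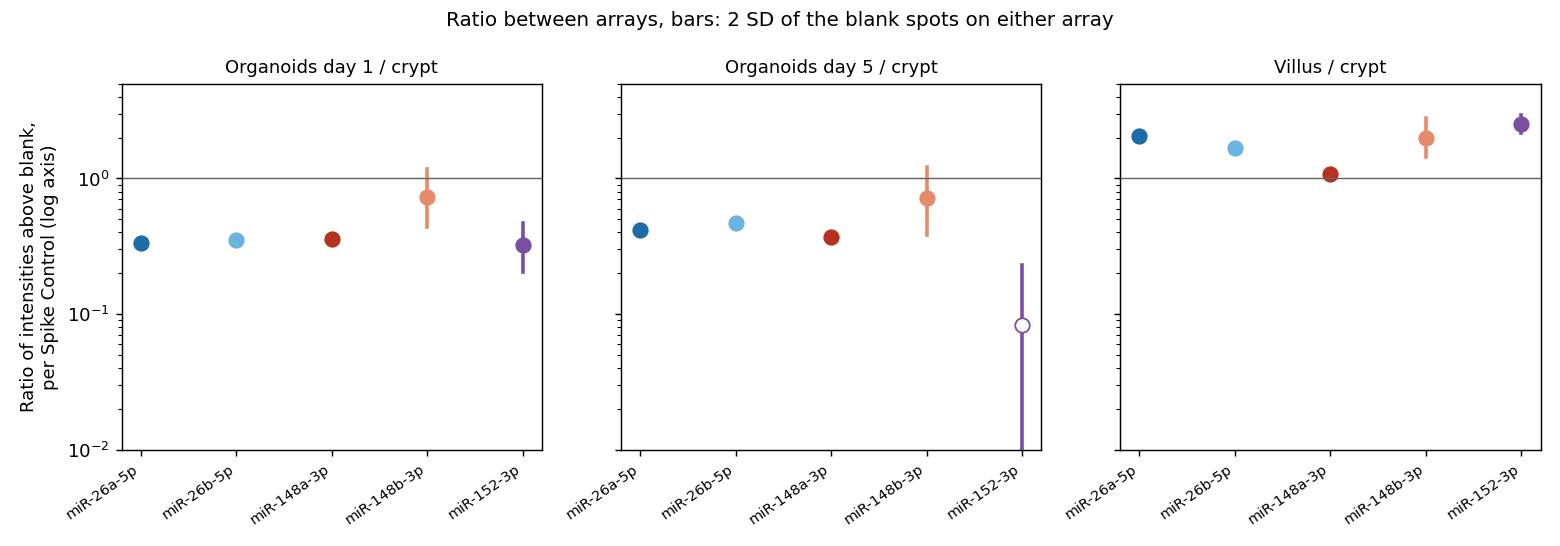
Ratio between arrays of each member's intensity above blank, divided by that of the Spike Control spots (log axis), for day 1, day 5 and villus over crypt; bars span 2 blank SDs on either array, the open symbol was not detected on day 5 and its bar reaches 0, below the axis. On day 1, 4 members sit between 0.322 and 0.356 and miR-148b-3p at 0.728; on villus over crypt, miR-148a-3p is nearest 1 at 1.08.

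Villus against organoids leaves out the crypt array that the choice of members used, though it still rests on the organoid arrays. The members were chosen in part for low values on those same organoid arrays, so nothing is read from the excess here either. At least 2-fold lower on day 1 than on the villus array were 3 of 5 members, beside 5.02% of 1632 miRNAs, and none higher, beside 3.37%. miR-26a-5p was 4.97-fold lower (-2.31), miR-26b-5p 3.48-fold lower (-1.80) and miR-148a-3p 2.35-fold lower (-1.23). The first 2 were at least 2-fold lower under all 10 alternatives and miR-148a-3p under 9, with -0.55 under epithelial scaling. On day 5, 3 of 5 were at least 2-fold lower than on the villus array, beside 4.61% of 1539 miRNAs, and none higher, beside 2.79%. miR-26a-5p was 3.79-fold lower (-1.92), miR-26b-5p 2.47-fold lower (-1.30) and miR-152-3p at least 2.03-fold lower. miR-148a-3p had -0.97. Both miR-26 paralogs were again at least 2-fold lower under all 10 alternatives. Markers of mesenchymal and other cell types were brighter on the villus array, as given below. Their part in these differences was not tested.

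By name, villus against crypt sets differentiated against proliferating epithelium. The villus array also had more signal from markers of other cell types, given below. Differentiation and the mixture of cells therefore cannot be told apart. Villus against crypt showed no member at least 2-fold lower, beside 3.33% of 1563 miRNAs, and none at least 2-fold higher, beside 3.84%. The log2 differences were -0.39 for miR-26a-5p, -0.34 for miR-26b-5p, -0.91 for miR-148a-3p, -0.15 for miR-148b-3p and -0.02 for miR-152-3p. The count at least 2-fold higher was 2 under median scaling, beside 16.4% of all miRNAs, and 1 under 75th percentile scaling, beside 9.09%. It was 2 under Spike Control scaling and 3 under epithelial scaling, where 58.1% and 62.4% of all miRNAs were higher, so those counts lie near or below the background. None of the 5 held its direction over the 10 alternatives: miR-26a-5p was above 0 under 6 and ran from -0.41 to 1.90, and miR-152-3p was above 0 under 6 and ran from -0.31 to 1.45. miR-148a-3p was the lowest of the 5 on the quantile-normalized scale, and above 0 under 4 alternatives. As ratios of intensity above blank per Spike Control, villus over crypt was 2.05 (2.04 to 2.06) for miR-26a-5p, 1.68 (1.65 to 1.71) for miR-26b-5p and 1.08 (1.06 to 1.10) for miR-148a-3p. It was 1.98 (1.44 to 2.81) for miR-148b-3p and 2.52 (2.18 to 2.94) for miR-152-3p. Within that scale the range of miR-148a-3p lies below those of the other 4 members.

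Markers of other cell types moved with this comparison. Of 13 mesenchymal probes, all 13 were detected in villus and 9 in crypt. Of these, 10 were past 2-fold with villus higher and 0 with villus lower, beside 3.84% and 3.33% of all miRNAs. Their summed intensity above blank, as a percentage of the Spike Control spots of the same array, was 90.7% for villus and 1.68% for crypt. It was 1.19% on day 1, with 10 probes detected, and 1.16% on day 5, with 7 detected. Of 6 leukocyte probes, 6 were detected on the villus and 5 on the crypt array, with sums of 6.83% and 0.602%. The 2 endothelial probes summed to 2.35% and 0.0811%, and the 4 red blood cell probes to 7.96% and 0.317%. The part of these cells in the villus values of the 5 members was not tested. The 5 members themselves summed to 18.9% and 10.7% on this scale, on which miR-26a-5p, the brightest, weighs most.

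**Figure D4:**
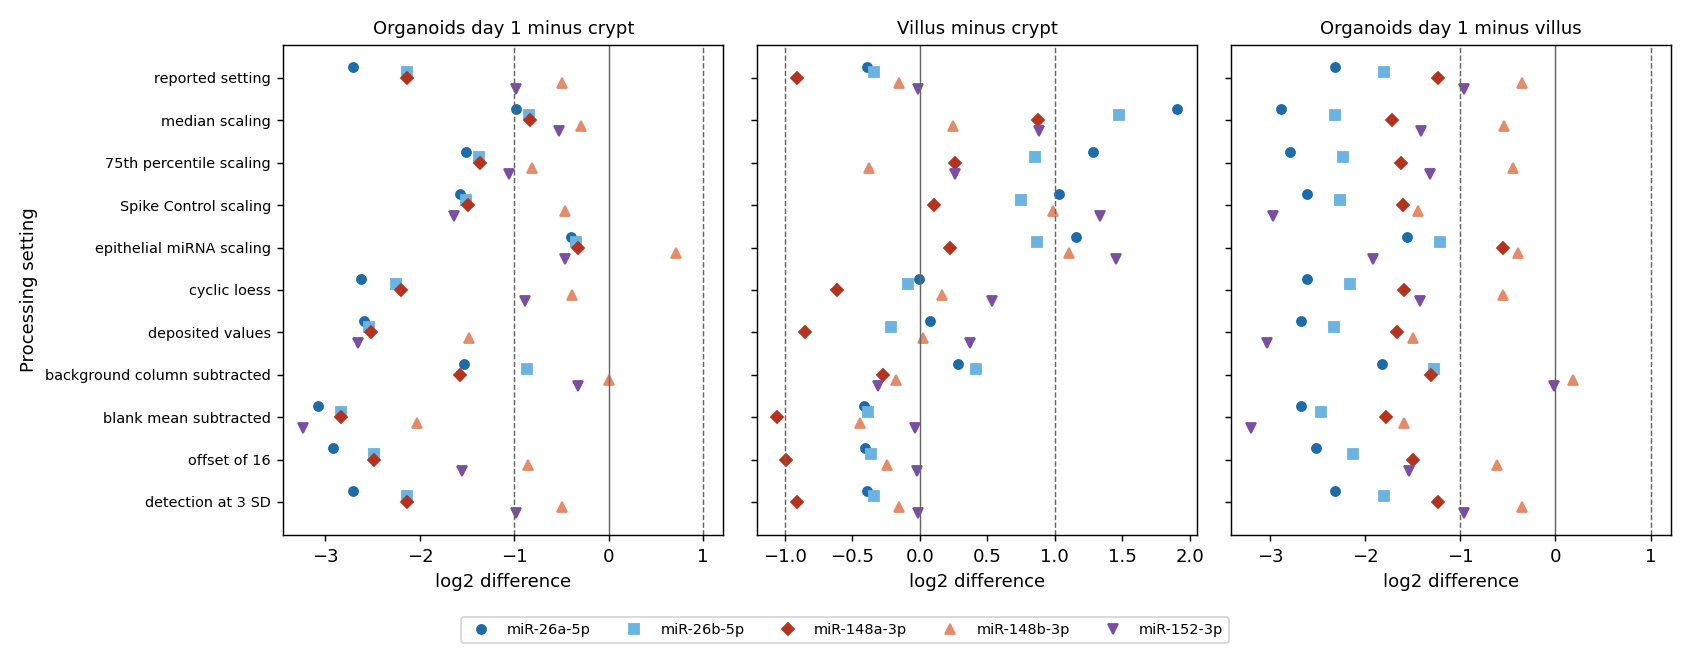
Log2 difference of the 5 members (symbols) under the reported setting and the 10 alternatives (rows), for day 1 minus crypt, villus minus crypt and day 1 minus villus; dashed lines mark 2-fold. miR-26a-5p stays left of 0 throughout the left and right panels (highest -0.40 and -1.56) and lies on both sides of 0 in the middle panel, from -0.41 to 1.90.

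Between day 1 and day 5 of culture no member was at least 2-fold lower, beside 0.892% of 1569 miRNAs, and none at least 2-fold higher, beside 0.319%. The differences of day 5 minus day 1 were 0.39 for miR-26a-5p, 0.50 for miR-26b-5p, 0.26 for miR-148a-3p and 0.10 for miR-148b-3p. miR-152-3p was at least 1.04-fold lower on day 5, and only 7 of the 10 alternatives left it a bound. These bounds could only lie below 0, since any other is dropped, so nothing is read from their sign. The ratio of intensity above blank per Spike Control for miR-152-3p was 0.257, with a range of 0 to 0.912. By direction, miR-26b-5p was above 0 under 9 of 10 alternatives and miR-26a-5p under 7, but miR-26a-5p had -0.07 under epithelial scaling, -0.16 under median scaling and -0.07 after subtraction of the background column. Relative to all miRNAs, miR-26b-5p was above 0 under all 10 (0.08 to 0.90). The day 5 array lay on another slide than the other 3, so the day of culture and the slide cannot be told apart. The same limit holds for every comparison of day 5 with crypt or villus, the paralog ratios included.

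The other arms of the 6 hairpins, the strands usually discarded when the mature miRNA is loaded, were dim. miR-26a-1-3p was not detected on any array. miR-26b-3p, the brightest of them on the villus array, had intensities of 136.1 for villus, 75.3 for crypt, 111.3 for day 1 and 83.9 for day 5, with log2 levels of 6.18, 6.42, 6.30 and 6.43. Its day 1 minus crypt difference was -0.11 and its day 5 minus crypt difference 0.02, while miR-26b-5p of the same hairpin had -2.14 and -1.64. miR-26a-2-3p had -0.09 and 0.12, and miR-148a-5p had -0.19 on day 1. miR-148b-5p was not detected on the crypt array and was at least 1.06-fold higher on day 1, and miR-152-5p had -0.04 on day 1. None of the 6 arms was at least 2-fold different in either comparison. The median of the 5 with a value was -0.09 on day 1, but 1.11 with Spike Control scaling and 2.28 with epithelial scaling. Crypt values of these arms lay at most 7.70 blank SDs above the blank mean.

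The probes whose profiles over the 4 arrays lay nearest, by Euclidean distance between mean-centred log2 levels among 1149 miRNAs detected on all 4, differed between the paralogs. For miR-26a-5p they were miR-215-5p (distance 0.37), miR-30b-5p (0.59), miR-26b-5p (0.60), let-7f-5p (0.60) and miR-30c-5p (0.63). For miR-26b-5p they were miR-30c-5p (0.05), miR-29a-3p (0.13), miR-29b-3p (0.21), miR-194-5p (0.23) and miR-30b-5p (0.23). For miR-148a-3p they were let-7d-5p (0.16), let-7g-5p, let-7c-5p (both 0.18), let-7a-5p (0.21) and miR-16-5p (0.28). For miR-148b-3p they were miR-1231-5p (0.06), miR-151-5p (0.06), miR-181d-5p (0.08), miR-6975-5p (0.08) and miR-320-3p (0.09), a set with no member of the other lists. Within the pairs, miR-26b-5p had rank 3 among the neighbours of miR-26a-5p, and miR-26a-5p rank 27 among those of miR-26b-5p, at a distance of 0.60. miR-148b-3p had rank 131 among the neighbours of miR-148a-3p, and miR-148a-3p rank 1020 among those of miR-148b-3p, at a distance of 1.30. miR-152-3p has no such profile, since it was not detected on day 5. Profiles were centred but not scaled, so the distances take in the size of the changes. The offset makes changes of dim probes such as miR-148b-3p smaller, and its part in these ranks was not tested. The points are 4 arrays with no replicates, so these distances are descriptions.

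Other miRNAs reported to repress DNA methyltransferases or Ezh2 were set beside the 5 members. As with the other lists here, these probes were chosen with earlier results of these data known, so their counts are a description. Of 9 such probes, 4 were past 2-fold with day 1 lower than crypt and 0 with day 1 higher, beside 6.19% and 5.19% of all miRNAs, with a median of -0.80 beside 0.03 for all miRNAs. These were miR-29a-3p (-1.98), miR-29b-3p (-2.23) and miR-29c-3p (-1.65), reported to repress Dnmt3a and Dnmt3b, and miR-143-3p (-1.63), which is made mainly in mesenchymal cells. The Ezh2-directed miR-101b-3p had -0.59 and miR-101a-3p was at least 1.40-fold lower. miR-138-5p, also reported to repress Ezh2, had 0.04. Of the Dnmt1-directed pair, miR-185-5p had -0.80 and miR-342-3p -0.39. On day 5, the same 3 miR-29 probes had -1.65, -1.48 and -1.46, and miR-143-3p, not detected there, lay at least 3.27-fold below crypt. The list median under epithelial scaling was -0.02 on day 1 and 0.03 on day 5. Between villus and crypt 1 of the 9 passed 2-fold, beside 3.84% of all miRNAs higher and 3.33% lower. It was miR-143-3p, which was higher in villus (4.24).

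Other families also lay below crypt, though they were not matched to the members in brightness. The 5 members' median of -2.14 on day 1 lay near that of let-7 (-1.96, 9 of 9 at least 2-fold lower), miR-29 (-1.98, 3 of 3) and 5 probes of miR-30 (-1.72, 5 of 5), beside 6.19% of all miRNAs. The 8 epithelial miRNAs had a lower median (-2.33, 8 of 8). On day 5 the medians were -1.64 for the members, -1.67 for let-7, -1.48 for miR-29 and -1.58 for miR-30. All of these comparisons share the crypt array. No difference between the families was tested.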

How the data were processed

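Per the labels' protocols, total RNA carried a Cy5 label from a miRCURY LNA kit, with 1 array per sample. The deposited scanner tables give linear median intensities of 3200 spots, joined over 3 scanner gains by least-squares lines, per the file headers. The deposited table of processed values holds intensities too: each column is a straight line of the scanner values with its zero at the blank mean and a median of 25.0 (largest residual 0.0535). Array maker and scanner: not given in the sources used here.

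The column named as background tracked its own spot (correlation of log2 values 0.931 to 0.963), so normexp ran on the spot intensity alone (offset 50, limma 3.58.1, R 4.3.3), followed by log2 and quantile normalization over 1897 miRNA probes. Of 1900, 3 with a failed quality mark were left out, and 12 carry several names. Detection used 896 blank spots with the outer 5% at each end left out. Where 1 array detected a miRNA, the difference is a bound, taken against the lowest detected level or the dim probe's own level, whichever is higher. A bound with no size left in its direction was dropped. The sign of a bound is therefore set by which array detected the miRNA. The steps were run on simulated arrays that shared the villus profile, with known changes balanced up and down. That run does not cover arrays that differ in signal brightness or in the bright miRNAs as a group. The 5 members and all lists were chosen with earlier results of these data known. The named miRNAs are the members, the other arms, the 5 nearest profiles of each member detected on all 4 arrays (not miR-152-3p) and the list of reported DNA methyltransferase and Ezh2 repressors. The number of arrays limits the precision. 10 alternatives were run.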

Additional observations from a re-analysis of the deposited data

How the results depend on the processing

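No paired analysis was possible because each group had 1 array. Each count of members below is followed by the share of all miRNAs at least 2-fold lower under that setting. Not every setting that moved a count by 1 is listed. On day 1 against crypt the count lower was 3, but 0 under median (0.0625%) and epithelial (0.25%) scaling, and 5 in the deposited values (16.3%) and with the blank mean subtracted (20.5%). On day 5 against crypt it was 4, but 2 under median scaling (0.341%) and after subtraction of the background column (3.48%), 1 under epithelial scaling (0.683%), and 5 in the deposited values (17.3%) and with the blank mean subtracted (16.5%). For villus against crypt it was 0, and 1 with the blank mean subtracted (18%). For day 5 against day 1 it was 0, and 1 (miR-152-3p, as a bound) with Spike Control (19.2%) and epithelial (43%) scaling and in the deposited values (12.7%). For day 1 against villus it was 3, but 5 with Spike Control scaling (12.7%), in the deposited values (14%) and with the blank mean subtracted (15.3%). For day 5 against villus it was 3, and 5 with Spike Control scaling (19.6%) and in the deposited values (17.1%). The miR-152-3p bound on day 5 against crypt fell short of 2-fold in several settings. Among them were detection at 3 SD (-0.98), 75th percentile scaling (-0.67) and cyclic loess (-0.63). With detection at 3 SD its bound on day 5 against villus fell short too (-0.97). The paralog difference miR-148a-3p minus miR-152-3p for day 1 against crypt, -1.16 as reported, turned to 0.14 with Spike Control scaling, with epithelial scaling and in the deposited values, and to 0.40 with the blank mean subtracted. The cause of these changes was not tested.

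Spike Control scaling, epithelial scaling and the deposited values share 1 background step and 1 factor per array, so within them paralog differences are the same measurement and not separate tests. Detection at 3 SD left the values as they were where both arrays still detected the miRNA. miR-148b-3p lay within 10 blank SDs of the blank mean on the crypt and both organoid arrays, and miR-152-3p within 10 on the organoid arrays. Signal over background therefore limits both of these members. With 1 array per group the spread between animals or cultures is unknown.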
